A study of Mus musculus with 10 samples.

Results

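The HoxA cluster genes are a row of homeobox genes on mouse chromosome 6, and the 9 members described here are Hoxa2, Hoxa3, Hoxa4, Hoxa5, Hoxa6, Hoxa7, Hoxa9, Hoxa10 and Hoxa11. They were taken by their symbols from the 24500 gene rows of the deposited counts, and all 9 had a row in every library. ChIP-seq against H3K27me3 and against EZH2 was compared between control and ex14D-Ezh2 cells. Each antibody had 2 libraries in either genotype, and each genotype had a single input library, which makes 10. Control cells were E14 mouse ES cells of wild-type genotype, with the strain given as 12910la. The ex14D-Ezh2 cells were the same ES cells after CRISPR-Cas9 cutting in exon 14 of Ezh2, grown from picked colonies, and their genotype was given as a knockout of that exon. Their sample titles read Ezh2KO, a name the study's text uses for another line, and they were taken as ex14D cells from the genotype label. The study describes ex14D-EZH2, the spliced form that skips the exon, as the functional one in ex14D-Ezh2 lines, and it describes less EZH2 protein in them, so the form and the amount of EZH2 cannot be told apart here. Control and ex14D cells were E14 cells alike, and no treatment distinguished them in the labels. The labels do not say whether the 2 libraries of a genotype came from separate cultures or colonies, so p-values measure the spread between these libraries, which may be technical. The names of the ex14D files carry 2 different tags that the labels do not explain, so a difference between lines cannot be told apart from one between libraries.

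Hox genes encode homeodomain transcription factors that give cells their position along the body axis, and genes at the Hoxa2 end of the cluster are used further towards the head than those at the Hoxa11 end. In ES cells the clusters are largely silent and are known targets of Polycomb. Polycomb repressive complex 2 (PRC2), with EZH2 or EZH1 as its catalytic subunit, methylates lysine 27 of histone H3, and the trimethylated form, H3K27me3, marks repressed developmental genes. Unmethylated CpG-rich DNA is a common place for PRC2 to be found in mammals.

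The H3K27me3 libraries held 594289 and 937207 reads on gene rows in control and 1248018 to 1450937 in ex14D cells, with 409371 and 416778 in the inputs and 13628137 to 18403892 in the EZH2 libraries. Levels are given as CPM, counts scaled to 1000000 reads on genes in that library, so they are relative within a library. No external standard was described, and a change of the whole mark in a cell cannot be read from them, nor can fewer marked cells be told apart from less mark per cell. The study's methods give a 1 kb window at the start site of each gene for the counted reads, and H3K27me3 and input values are described as such. The EZH2 counts went against this description. They rose with gene length, with a Spearman correlation across 11832 genes of 0.89 to 0.93 against 0.15 to 0.17 for H3K27me3, and are treated here as reads over whole genes, which is an inference from the values. The promoters of 8 ES cell marker genes, among them Pou5f1 and Nanog, had a median log2 H3K27me3 level over input between -2.55 and -1.99 in the 4 libraries, and 8 fibroblast marker genes had medians between -1.05 and -0.03. ChIP-seq gives no RNA level, so these values bear on the ES cell label only indirectly, and reads at Ezh2 cannot check the edit.

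All 9 genes lie on the reverse strand of chromosome 6 (mm10), from the 3′ end of Hoxa2 at 52162417 to the 5′ end of Hoxa11 at 52245810. The DNA just upstream of 3 of them is shown because these promoters lie at the ends of the results that follow. Among the edgeR fold changes of H3K27me3, which do not use the input, Hoxa5 had the lowest and Hoxa11 the highest, with Hoxa9 close to it, and Hoxa9 had the highest level in ex14D cells. Each sequence is the 250 bases before the start site of the gene (RefSeq, GRCm38), 5′ to 3′ on the strand of the gene, and capitals mark the dinucleotide CG, which reads the same on both strands. The positions are chr6:52204588-52204837 for Hoxa5, chr6:52227371-52227620 for Hoxa9 and chr6:52245811-52246060 for Hoxa11. The GENCODE annotation puts no UTR in any of them.
Hoxa5: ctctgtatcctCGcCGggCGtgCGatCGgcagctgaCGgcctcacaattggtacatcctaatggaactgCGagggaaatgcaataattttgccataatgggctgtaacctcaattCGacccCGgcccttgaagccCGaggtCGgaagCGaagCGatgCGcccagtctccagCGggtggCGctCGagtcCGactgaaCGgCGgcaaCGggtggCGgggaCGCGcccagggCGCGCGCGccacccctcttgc
Hoxa9: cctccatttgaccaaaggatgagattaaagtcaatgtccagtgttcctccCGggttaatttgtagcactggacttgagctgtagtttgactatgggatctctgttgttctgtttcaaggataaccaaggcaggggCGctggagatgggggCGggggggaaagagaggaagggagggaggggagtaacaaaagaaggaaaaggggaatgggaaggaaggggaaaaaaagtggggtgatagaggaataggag
Hoxa11: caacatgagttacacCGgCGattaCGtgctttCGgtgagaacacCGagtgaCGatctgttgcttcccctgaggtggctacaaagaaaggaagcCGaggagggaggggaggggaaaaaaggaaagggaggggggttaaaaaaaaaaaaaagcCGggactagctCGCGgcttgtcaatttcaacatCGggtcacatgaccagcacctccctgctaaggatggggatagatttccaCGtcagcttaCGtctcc
The stretch before Hoxa5 held 28 CG, and 7.26% of the 27025 promoter sequences of that length in the table held at least as many. Hoxa11 held 13, which 31.8% of all promoters reached, and Hoxa9 held 3, which 70.4% reached. Sequences were found for 8 of the 9 members, with no entry for Hoxa4. They held 3 to 28 CG with a median of 10, against a median of 6 over all promoters. In the 1 kb windows in which H3K27me3 was counted, the members held 22 (Hoxa7) to 126 CG (Hoxa4), with a median of 49 against 40 over 23516 windows. The members thus ran from CpG-poor to CpG-rich DNA.

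A single H3K27me3 peak covered all 9 genes from end to end in each library. Its width was 131.4 and 131.8 kb in control and 128.9 and 129.1 kb in ex14D cells, and it ranked between 2 and 4 by width among the 9465 to 19978 peaks of a library. The peak began 13.4 to 16.0 kb beyond the 3′ end of Hoxa2 and ended 31.9 to 32.4 kb beyond the 5′ end of Hoxa11. MACS2, the peak caller, gave the peak a fold enrichment of 3.36 and 3.20 in control and 4.88 and 6.01 in ex14D cells. These values lay near the middle of each library's peaks, whose median fold enrichment was 3.30, 3.04, 4.77 and 5.50 in the same order. By the values of the peak caller the cluster therefore stood out among the peaks by its width and not by its fold enrichment. Each value is for a whole peak, and the median peak was 1.60 to 2.17 kb wide, so the comparison is not like for like. By level over input the single promoters of the cluster ranked high, as given below. Its −log10 q was 5.43 and 6.35 in control and 15.2 and 19.5 in ex14D cells. An EZH2 domain, called by hiddenDomains in bins of the genome, likewise covered all 9 genes in each EZH2 library, over 127 and 129 kb in control and 116 and 124 kb in ex14D cells. In both ex14D libraries the domain began nearer to Hoxa2 than in either control library, at 9.42 and 10.4 kb against 12.4 and 13.4 kb. It also ended nearer to Hoxa11, at 23.2 and 30.2 kb against 31.2 and 32.2 kb. The edges of these domains fall on whole kb, coarser than the bins that the methods state, and in the ex14D library with the shorter domain a separate domain of its own followed after a gap.

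**Figure D1:**
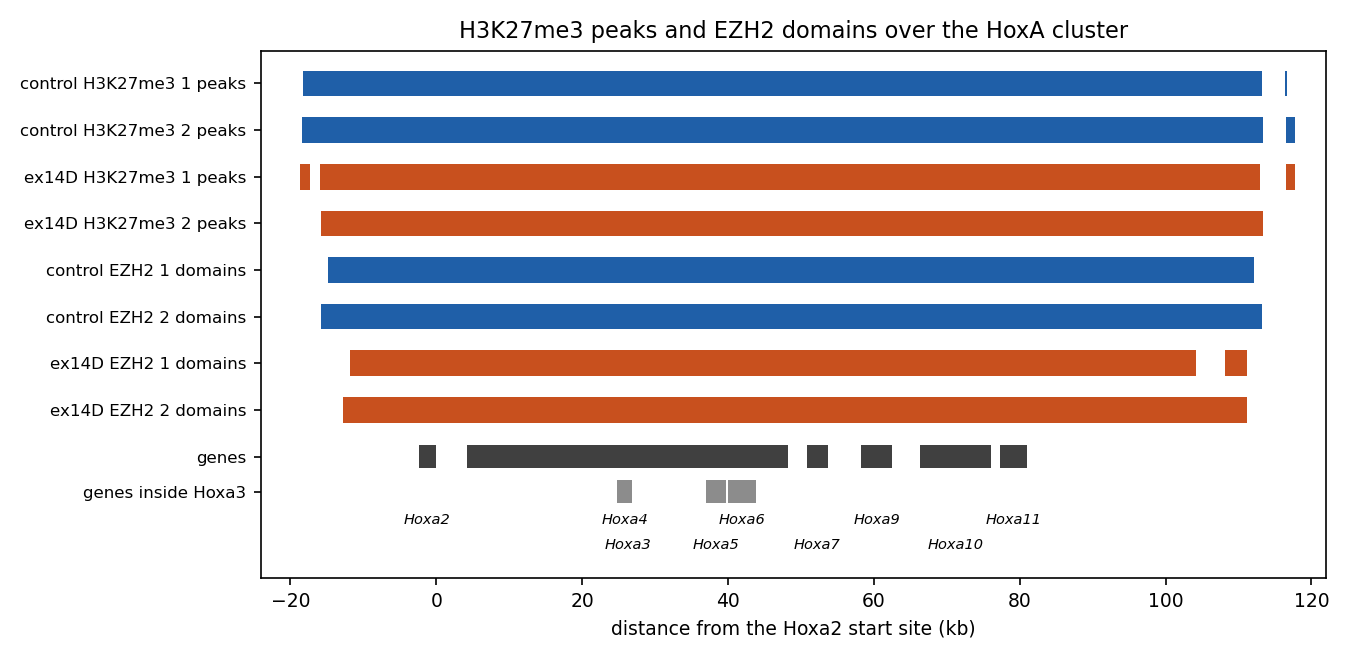
Peaks and domains over the HoxA cluster in each library (rows), drawn by distance in kb from the start site of Hoxa2. Blue bars are control and orange bars ex14D libraries, dark grey bars are genes and light grey bars are the 3 genes that lie inside the span of Hoxa3. One bar covers all 9 genes in each of the 8 libraries, and the EZH2 domain is shorter in both ex14D libraries.

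Counted by promoter, 9 of 9 members had an H3K27me3 peak over the window in both control libraries, where 18.2% of the 23516 placed genes did, and 9 of 9 in both ex14D libraries, where 16.7% did. An EZH2 domain lay over 9 of 9 windows in both control libraries, against 16.9% of genes, and over 9 of 9 in both ex14D libraries, against 10.5%. Because 1 interval covers the whole cluster, these counts are 1 observation per library and not 9.

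H3K27me3 was high at all 9 promoters in control cells, and it ranked every one of them among the first 609 of 24500 promoters by level over input. The level over input here is the ratio of CPM + 1 in the ChIP library to CPM + 1 in the input of the genotype. Averaged on the log scale it was lowest at Hoxa10, at 7.39-fold, and highest at Hoxa11, at 22.1-fold, and the other 7 promoters lay between 9.26-fold (Hoxa5) and 14.3-fold (Hoxa4). Only 4 input reads fell in the control window of Hoxa11, so its place at the top rests on few reads. In ex14D cells the level over input ran from 12.4-fold at Hoxa5 to 33.6-fold at Hoxa9, and the members ranked between 38 and 375. The inputs themselves held 170 of 409371 reads on the 9 windows in control (415 CPM, exact 95% Clopper-Pearson interval 355 to 483) and 192 of 416778 in ex14D cells (461 CPM, 398 to 531), and these intervals, which cover counting error only, overlap.

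Relative to the other promoters of a library, H3K27me3 rose in ex14D cells at every HoxA promoter measured, by 2.58-fold to 3.96-fold. These edgeR values use TMM scaling factors of 1.16 and 1.18 in the control and 0.87 and 0.84 in the ex14D libraries. The CPM given below for each gene leave these factors out, so they differ less between genotypes. With library size alone, the log2 fold changes of the members ran from 0.91 to 1.53. By Western blot the study reports less H3K27me3 in total in ex14D cells, which values relative within a library do not measure. The question was whether the mark at these genes differs where ex14D-EZH2 is the functional form. In edgeR's quasi-likelihood test with adjustment over 14883 promoters, 9 of 9 members rose and 0 fell, against 5.85% of all promoters that rose and 3.19% that fell. The median log2 fold change of the members was 1.77, against -0.02 over all promoters tested. The members held ranks between 34 and 321 from the top of the 14883 fold changes. For every member both ex14D libraries lay above both control libraries. The share of all promoters that separated in this way was not counted.

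At the Hoxa2 end are the genes of the hindbrain and pharyngeal arches. Hoxa2, which patterns the second pharyngeal arch and the hindbrain, had 257 and 253 CPM in control and 567 and 656 CPM in ex14D cells, over an input of 24.4 and 24.0 CPM. Its groups were far apart and its controls nearly alike, and the log2 fold change was 1.71 (SE 0.20, edgeR adjusted p = 3.76e-06). Hoxa3, needed for the thymus and parathyroid glands, had 623 and 643 CPM in control and 1443 and 1720 CPM in ex14D cells, with inputs of 46.4 and 52.8 CPM. It rose by 1.77 on the log2 scale (SE 0.20, edgeR adjusted p = 2.74e-06). The window counted for Hoxa3 is centred 48236 bp from the Hoxa2 start site, between the start sites of Hoxa6 (43841 bp) and Hoxa7 (53742 bp). Its value is thus not from the Hoxa2 end of the cluster. The window of Hoxa2 shares part of its length with that of the noncoding gene Hoxaas2, and 843 of its 1000 bp are its own, so some reads there were assigned to neither gene.

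The middle genes, Hoxa4 to Hoxa7, act in the patterning of the neck and thorax. Hoxa4 had 740.4 and 617 CPM in control and 1481 and 1851 CPM in ex14D cells. It was among the strongest promoters of the cluster in both genotypes, and its log2 fold change was 1.75 (SE 0.21, edgeR adjusted p = 4.11e-06). Hoxa5, which is also required for lung development, had 523 and 534 CPM in control and 937 and 1055 CPM in ex14D cells. It had the lowest edgeR value of the 9, a log2 fold change of 1.36 (SE 0.20, edgeR adjusted p = 3.54e-05). Its input was 56.2 CPM in control and 79.2 CPM in ex14D cells, the highest ex14D input of the members, and it is the gene shown above with 28 CG upstream. Hoxa6 had 421 and 461 CPM in control and 1008 and 1206 CPM in ex14D cells, a log2 fold change of 1.78 (SE 0.20). Hoxa7 had 552 and 480.2 CPM in control and 1259 and 1509 CPM in ex14D cells, a log2 fold change of 1.88 (SE 0.21). Both had an adjusted p of 2.74e-06 in edgeR, and in neither did the groups overlap.

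Hoxa9, Hoxa10 and Hoxa11 belong to the group related to the fly gene Abdominal-B. Hoxa9, known for its part in blood stem cells and in leukaemia, had 730.3 and 616 CPM in control and 1609 and 2219 CPM in ex14D cells. It held the highest values in ex14D cells and also one of the wider spreads there, and it rose by 1.96 on the log2 scale (SE 0.22, edgeR adjusted p = 2.74e-06). Hoxa10, which acts in the uterus and hind limb, had 624 and 617 CPM in control and 1199.9 and 1592 CPM in ex14D cells, a log2 fold change of 1.62 (SE 0.21, edgeR adjusted p = 8.62e-06). A ChIP-PCR amplicon of the study at Hoxa10, placed on GRCm38 by its primers, lies 5.596 kb from this start site. It is outside the counted window, so these counts do not measure it, but inside the peak that covers the cluster in each library. By ChIP-PCR the study reports less H3K27me3 at genes including Hoxa10 when ex14D-EZH2 was the only form. That is the opposite direction to the relative counts given here, and the measures were not compared. Hoxa11, which acts in the forearm and the uterus, had 254 and 221 CPM in control and 569 and 800.5 CPM in ex14D cells. Its log2 fold change of 1.98 (SE 0.22, edgeR adjusted p = 2.74e-06) was the highest of the 9. Those of Hoxa9, Hoxa7, Hoxa6 and Hoxa3 lay within its SE. Of its window 567 bp are its own, since the antisense gene Hoxa11os shares the rest. Its input was 9.77 CPM in control and 26.4 CPM in ex14D cells, on 4 and 11 reads, and with these few input reads its level over input was 22.1-fold in control and 24.7-fold in ex14D cells. By library the level of Hoxa11 over input was 23.7-fold and 20.6-fold in control and 20.8-fold and 29.3-fold in ex14D cells, so the genotypes overlapped. Over input Hoxa11 thus had the smallest rise of the 9, and Hoxa9, at 9.68-fold and 33.6-fold, the largest. Without control replicate 1 the edgeR value was highest at Hoxa9, and without ex14D replicate 2 it was highest at Hoxa7.

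**Figure D2:**
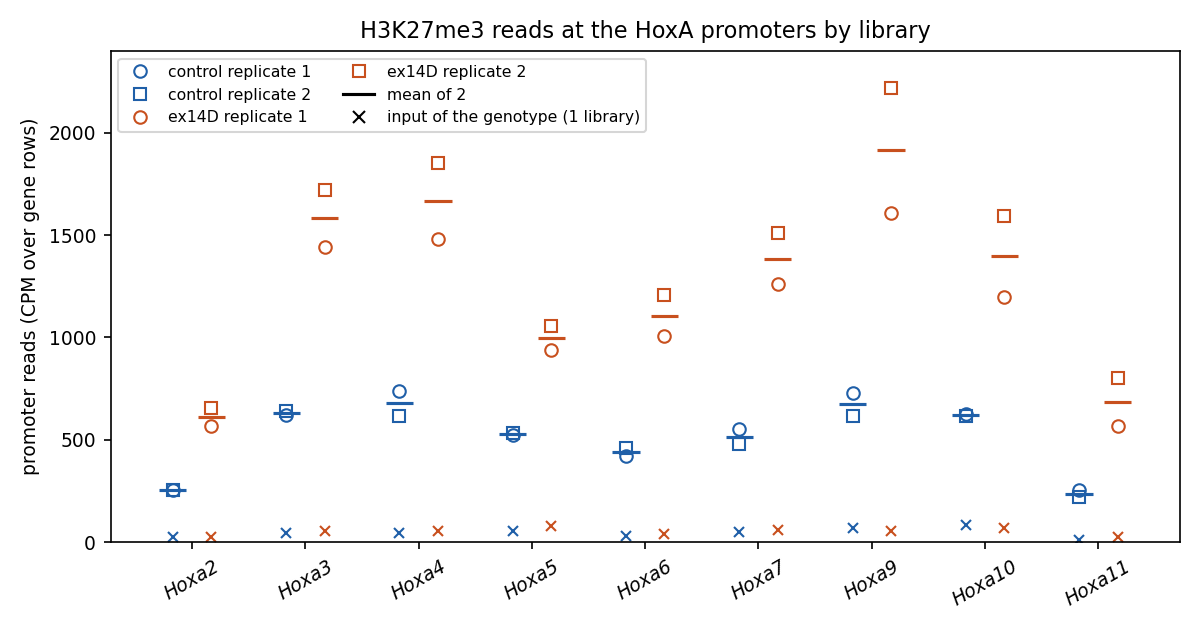
H3K27me3 reads in the 1 kb window of each HoxA gene in CPM (linear axis from 0), in cluster order. Circles and squares are the 2 libraries of a genotype, horizontal lines their mean, crosses the single input of the genotype, blue control and orange ex14D. Both ex14D libraries lie above both controls at each gene, and inputs reach at most 83.1 CPM.

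The order of the promoters within the cluster was compared per kb of window that no other counted window shares. In control cells Hoxa4 (679 ± 87.4 CPM per kb, SD, n = 2), Hoxa9 (673 ± 81.1), Hoxa3 (633 ± 14.7) and Hoxa10 (621 ± 5.34) led, and neighbours among these 4 overlapped. Hoxa5 (528 ± 7.20) and Hoxa7 (516 ± 50.7) followed and overlapped each other, as did Hoxa6 (441 ± 28.5) and Hoxa11 (419 ± 41.4). Hoxa2 was lowest at 303 ± 3.83 CPM per kb, below and apart from all the others. In ex14D cells Hoxa9 led with 1914 ± 431 CPM per kb and Hoxa2 was again last with 725 ± 75.2, and of the 8 steps in that order only the last, from Hoxa5 to Hoxa2, had libraries that did not overlap. The order therefore does not follow position along the cluster in either genotype, with the Hoxa3 window at its place between Hoxa6 and Hoxa7.

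Because all 9 promoters rose, the balance among them can be seen as the share of each in the summed H3K27me3 reads of the 9. Hoxa5 held 11.1% and 12.0% of these reads in control and 9.31% and 8.37% in ex14D cells. Hoxa10 held 13.2% and 13.9% in control and 11.9% and 12.6% in ex14D cells. Both shares were lower in each ex14D library than in each control library. Hoxa9 went from 15.5% and 13.9% to 16.0% and 17.6%, Hoxa7 from 11.7% and 10.8% to 12.5% and 12.0%, and Hoxa11 from 5.38% and 4.97% to 5.65% and 6.35%. The shares of these 3 were higher without overlap, and those of Hoxa2, Hoxa3, Hoxa4 and Hoxa6 overlapped between genotypes. With 2 libraries against 2 an exact permutation test cannot give a two-sided p under 0.333, so these shares are a description.

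EZH2 at the HoxA genes lay lower in ex14D cells, in the opposite direction to H3K27me3. Only 6 of the 9 members could be compared. Hoxa4, Hoxa5 and Hoxa6 lie wholly within the span of Hoxa3, Hoxa5 and Hoxa6 also within that of the noncoding gene Hoxaas3, and all 3 are listed at 0 in all 4 EZH2 libraries although an EZH2 domain covers them. Reads on more than 1 counted interval were assigned to no gene, and 1651 of the 1701 genes that lie inside another counted gene (97.1%) were at 0 in all 4 libraries, against 38.8% of the others. Their zeros are thus no measure of EZH2 at these genes, and the reads of Hoxa3 come from the 29.65 kb of its 44.006 kb that no other counted gene covers.

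Of the 6 members tested, 5 fell and 0 rose in edgeR's quasi-likelihood test with adjustment over 13401 genes, against 7.88% of all genes that fell and 0.0522% that rose. These 6 genes lie under 1 EZH2 domain in each library, so the calls are not independent observations. At an unadjusted p under 0.05, 1692 genes fell and 452 rose. The falls of the members were modest, at 0.63 to 0.72 of the control level, with a median log2 fold change of -0.59 against 0.02 over all genes. DESeq2 also called 5 of the 6, with Hoxa2 in place of Hoxa10. In each member both ex14D libraries lay below both control libraries, and the share of all genes that did so was not counted. When either control library was left out, so that the other is assumed to vary as the ex14D libraries do, 0 members and 0 genes in all passed. At an unadjusted p under 0.05, 5 members were lower without control replicate 1 and 6 without control replicate 2. Over all genes, 1372 genes (without replicate 1) and 1300 genes (without replicate 2) were lower at an unadjusted p under 0.05. When either ex14D library was left out, the median of the members was -0.83 without replicate 1 and -0.36 without replicate 2. In these fits the spread came from the control libraries alone, so only the size of the change is given.

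At the Hoxa2 end, Hoxa2 had 58.3 and 52.3 CPM of EZH2 in control and 44.2 and 31.0 CPM in ex14D cells. Its log2 fold change of -0.60 (SE 0.15) missed the threshold (edgeR adjusted p = 0.0551). Hoxa3 had 378 and 388 CPM in control and 318 and 248 CPM in ex14D cells, and fell by 0.48 on the log2 scale (SE 0.10, edgeR adjusted p = 0.0289). Hoxa7 had 129 and 134 CPM in control and 105 and 77.0 CPM in ex14D cells, a log2 fold change of -0.57 (SE 0.13, edgeR adjusted p = 0.0358). The libraries of ex14D cells stood further apart than those of control cells in each of these genes. Among the Abdominal-B related members, Hoxa9 had 152 and 148 CPM in control and 117 and 82.9 CPM in ex14D cells, a log2 fold change of -0.63 (SE 0.14, edgeR adjusted p = 0.0341). Hoxa10 had 297 and 306 CPM in control and 252 and 195 CPM in ex14D cells, a log2 fold change of -0.47 (SE 0.11, edgeR adjusted p = 0.0356). Hoxa11 had 97.8 and 86.8 CPM in control and 66.0 and 54.4 CPM in ex14D cells. Hoxa11 fell by 0.66 on the log2 scale (SE 0.10, edgeR adjusted p = 0.00942), close to Hoxa9, which had the lower value without control replicate 1 and without ex14D replicate 1.

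Per kb of gene that no other counted gene covers, EZH2 in control cells was highest over Hoxa7 at 44.5 ± 1.14 CPM per kb (SD, n = 2), then over Hoxa9 at 35.1 ± 0.66, and neither overlapped its neighbours in the order. Hoxa10 (31.2 ± 0.62) and Hoxa11 (29.4 ± 2.47) overlapped, followed without overlap by Hoxa2 (22.9 ± 1.75) and Hoxa3 (12.9 ± 0.25). In ex14D cells the order of the means was the same, from 30.8 ± 6.71 CPM per kb over Hoxa7 to 9.55 ± 1.65 over Hoxa3, and only Hoxa3 stood apart from its neighbour. Against the median of 11058 genes these levels were 13.1-fold to 46.5-fold higher in control and 8.09-fold to 35.1-fold higher in ex14D libraries. These 6 genes lay above 98.2% to 99.5% of the genes per kb in control libraries and above 98.5% to 99.5% in ex14D libraries.

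**Figure D3:**
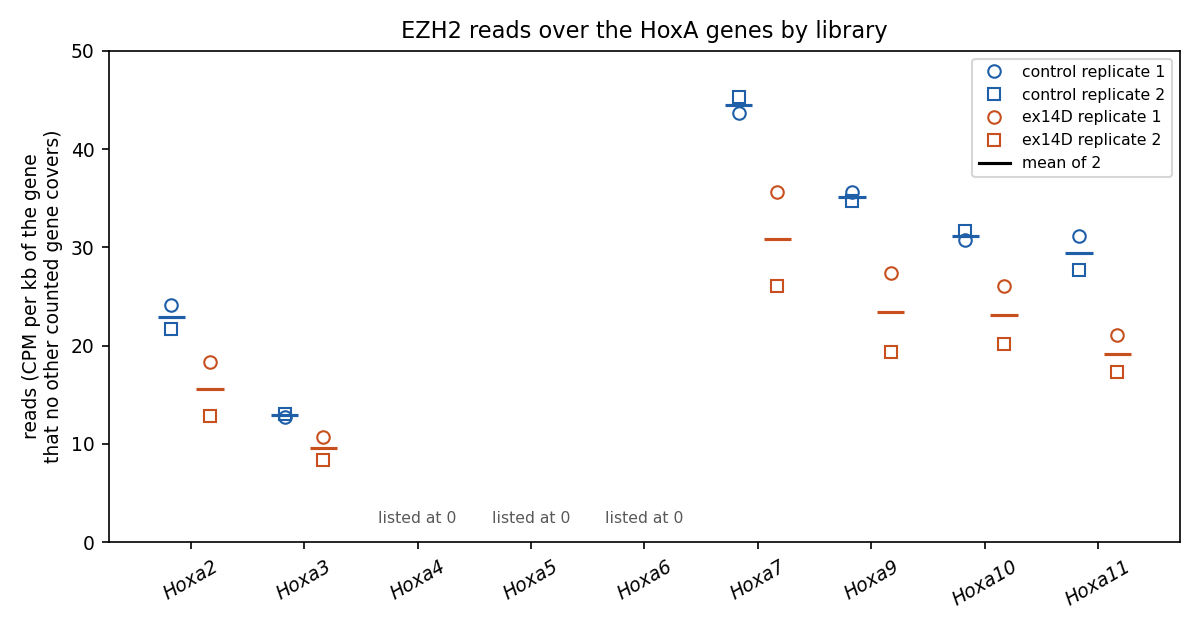
EZH2 reads in CPM per kb of gene that no other counted gene covers (linear axis from 0), in cluster order. Symbols are as libraries and genotypes in the legend, with lines for the mean of 2. Hoxa7 is highest in both genotypes, both ex14D libraries lie below both controls at each of 6 genes, and Hoxa4, Hoxa5 and Hoxa6, which lie inside Hoxa3, are listed at 0.

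For the 6 genes measured with both antibodies the median log2 fold change was 1.82 with H3K27me3 and -0.59 with EZH2. Each of the 4 ways to set an ex14D library against a control library gave a rise of H3K27me3 and a fall of EZH2 at each gene, from 1.35 to 2.35 and from -0.96 to -0.27 on the log2 scale. The 2 antibodies were counted over different intervals, a promoter window and a gene, and the difference between them was not tested.

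**Figure D4:**
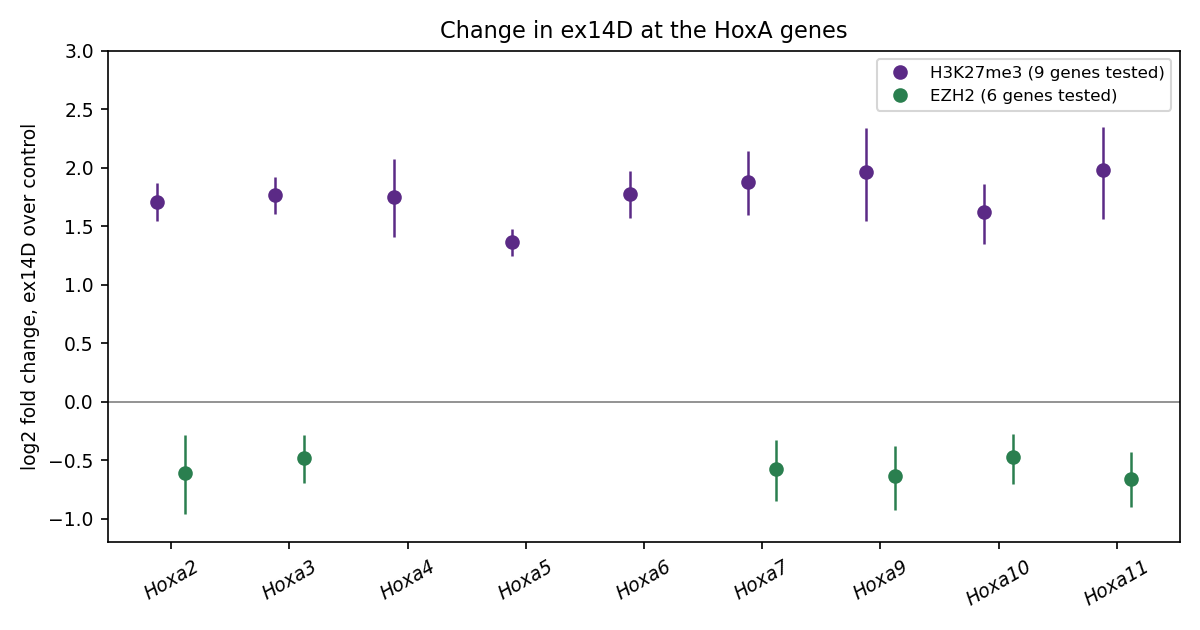
Log2 fold change of ex14D over control at each HoxA gene from edgeR, H3K27me3 in purple and EZH2 in green. Points are the fitted values and lines run from the lowest to the highest of the 4 pairings of libraries. H3K27me3 lies between 1.36 and 1.98 at all 9 genes and EZH2 between -0.66 and -0.47 at the 6 genes tested.

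The scaling of the libraries bears on the H3K27me3 values. Scaled by library size and without TMM factors, the median of all promoters moved to -0.47, the split over all promoters became 398 higher and 2176 lower in place of 871 and 475, and the members had a median of 1.32. With all counted reads as library size, the split was 633 higher and 585 lower and the members had a median of 1.63. The members stood 1.80 above the median of all promoters with TMM and 1.79 with library size alone, and all 9 rose under each scaling.

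The other Hox clusters, whose genes are paralogs of the members, rose at most of the promoters listed. With H3K27me3, 9 of 9 HoxB genes rose (median log2 fold change 1.65), as did 7 of 8 HoxC genes (1.44) and 7 of 8 HoxD genes (1.39). Whether the HoxA median of 1.77 differs from theirs was not tested. With EZH2, 5 of the 7 HoxD genes tested fell (median -0.65), and the HoxB and HoxC genes listed are at 0 in all libraries. An EZH2 domain nevertheless lay over 9 of 9 HoxB and 8 of 8 HoxC promoters in both libraries of either genotype. These zeros are thus no measure of EZH2 at those genes. The 8 genes on either side of the cluster listed for comparison, from Nfe2l3 to Skap2 before Hoxa2 and from Hibadh to Jazf1 after Hoxa11, were set beside the members. Their median log2 H3K27me3 level over input was between -2.56 and -2.21 where that of the members was between 3.32 and 4.85. Of the 4 tested with H3K27me3, 0 passed in edgeR or DESeq2 and 0 had an unadjusted p under 0.05 (adjusted p 0.581 to 0.932 in edgeR, median log2 fold change 0.07). Of the 8 tested with EZH2, 1 fell, Nfe2l3 (log2 fold change -0.47, edgeR adjusted p = 0.0239, DESeq2 adjusted p = 0.0785), and the median was -0.01.

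Lists for other kinds of gene were read beside the members. Of 8 genes active in all cells 1 was tested with H3K27me3 and rose, Ppia (log2 fold change 2.16, SE 0.67, edgeR adjusted p = 0.0401), but the 8 promoters together held only 32.0 to 50.5 CPM in the 4 libraries, against 4441 and 4725 CPM on the 9 members in control and 10071 and 12608 CPM in ex14D cells. Of the 5 tested with EZH2, 0 passed in edgeR or DESeq2 and 0 had an unadjusted p under 0.05. Of the 8 ES cell markers 4 were tested with each antibody, and Klf4 fell with both (H3K27me3 log2 fold change -0.88, EZH2 -1.45). Their summed H3K27me3 was 184 and 264 CPM in control and 123 and 125 CPM in ex14D cells. Of the 8 fibroblast markers 1 rose with H3K27me3, Twist2 (0.79), and 2 of 5 tested fell with EZH2, Thy1 (-0.95) and Twist2 (-0.43), with summed H3K27me3 of 759 and 796 CPM in control and 651 and 733 CPM in ex14D cells. The part of such markers in the HoxA result was not tested.

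**Figure D5:**
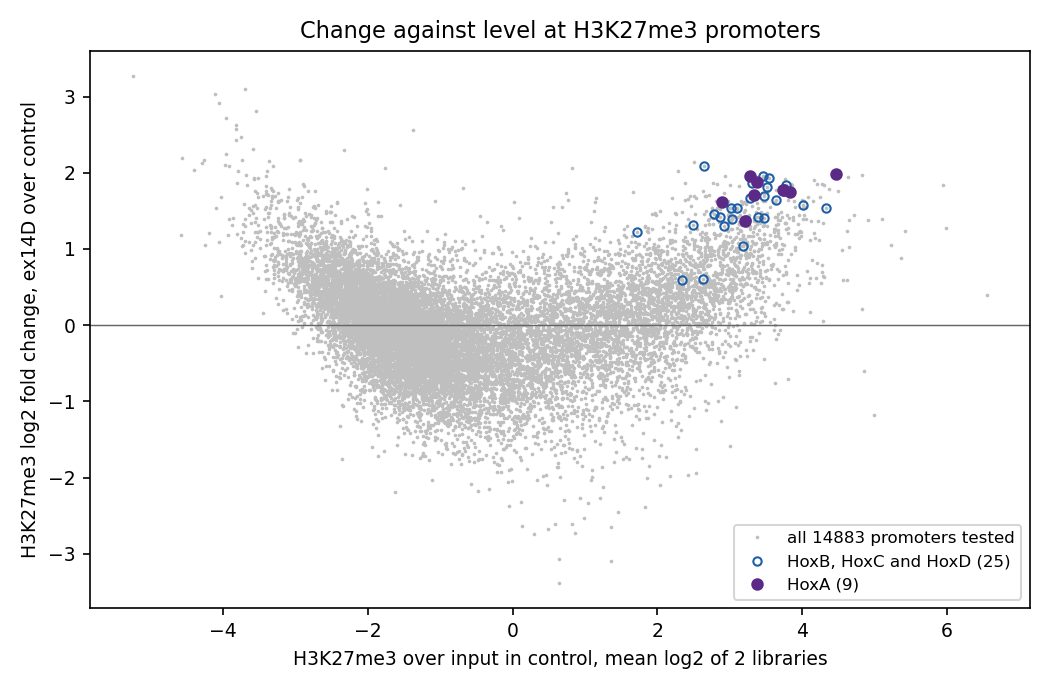
H3K27me3 log2 fold change of ex14D over control (vertical axis, edgeR) against the level over input in control, as the mean log2 of 2 libraries (horizontal axis). Grey points are all 14883 promoters tested, filled purple points the 9 HoxA promoters and open blue circles the 25 HoxB, HoxC and HoxD promoters. The HoxA promoters sit between 2.89 and 4.47 on the horizontal and between 1.36 and 1.98 on the vertical axis, at the upper right.

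Over the 6 H3K27me3 and input libraries, the genes outside the list whose log2(CPM + 1) values lay nearest to the mean of the members were Foxc1, Grb10 and Hmx1, at Euclidean distances of 0.36, 0.39 and 0.41. Foxc1, a forkhead factor, had 481 and 459 CPM in control and 989 and 1033 CPM in ex14D H3K27me3 libraries. Grb10, an imprinted gene, had 443 and 452 CPM in control and 1125 and 1415 CPM in ex14D libraries. Hmx1, another homeobox gene, had 584 and 425 CPM in control and 972 and 1160.2 CPM in ex14D libraries. These libraries share depth and scaling with those of the members, and the distances are a description.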

How the data were processed

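ChIP-seq of H3K27me3 and EZH2 and input DNA was taken from 10 libraries, grouped by the genotype and antibody in the labels. The authors aligned reads with Bowtie to mm10 (the submitters' processing notes list Trimmomatic, Bowtie2, MACS2, ChIPseeker and HTSeq) and used htseq-count for the counts. The deposited counts hold raw whole reads by gene row. Closing summary rows without a gene, 92.4% to 98.1% of reads in the H3K27me3 and input libraries and 55.7% to 56.1% in the EZH2 libraries, stayed out of library sizes. The authors called MACS2 broad peaks per library, and the deposited fold enrichment, −log10 p, −log10 q and score are those of the peak caller. The score was not used, and the control given to MACS2 is not given in the sources used here. EZH2 domains from hiddenDomains were used as positions. H3K27me3 domains were not used, because they run past chromosome ends of GRCm38.

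The members and all gene lists were chosen with earlier results of these data known. All 9 members are named, other genes only where a statement rests on them, and 3 genes by profile. Of 24500 genes, 23516 were placed with RefSeq on GRCm38. edgeR 4.0.16 in R 4.3.3 compared genotypes per antibody (TMM, filterByExpr, quasi-likelihood, Benjamini-Hochberg, threshold 0.05), and standard errors, from the fold change and F, are approximate. The pseudocount over input was 1 CPM. A peak or domain was counted over a promoter at an overlap of at least 1 bp. Replicates differed by more than sampling noise (chi-square per degree of freedom 1.49 to 4.01). Alternatives were other scalings, DESeq2 1.42.0, no filter, a replicate block, other pseudocounts and overlaps, and each library left out. Python 3.11.15, pandas 2.3.3 and matplotlib 3.10.9 were used elsewhere.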

Additional observations from a re-analysis of the deposited data

Results flagged for a closer look

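The HoxA genes measured with both antibodies moved in opposite directions in the same contrast of ex14D with control cells. The median log2 fold change over these 6 genes was 1.82 with H3K27me3 and -0.59 with EZH2, and every pairing of a control with an ex14D library gave these signs at each gene. The difference between the antibodies was not tested. Groups of 2 libraries were too small for a check of single libraries that stand apart.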

How the results depend on the processing

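All 9 members rose in H3K27me3 under every alternative run, with the highest adjusted p, 0.0456 at Hoxa10, without control replicate 2. Their median was 1.32 with library size alone and ranged from 1.64 to 1.90 when each library was left out. EZH2 was lower at all 6 members under every alternative. The number called was 0 to 6 with each library left out, 0 without either control replicate, and 3 with a replicate block, in which Hoxa3, Hoxa7 and Hoxa10 missed the threshold and Hoxa2 passed. Deviations of same-numbered libraries had a correlation of -0.0973 for H3K27me3 and -0.0184 for EZH2. With 2 libraries per group this cannot show whether same-numbered libraries share a batch, and the labels do not say. The block left 9 of 9 H3K27me3 calls. Without a filter 6 members were called. The median log2 level over input, 3.40 in control and 4.68 in ex14D cells, was 3.27 in control with a pseudocount of 5 CPM, and 3.97 in control and 5.50 in ex14D cells with CPM over all counted reads. Left-out libraries gave 3.32 to 3.47 and 4.51 to 4.85. Peak and domain counts stayed at 9 of 9 under stricter q and overlaps. The main limits are 2 libraries per group, 1 input per genotype with 4 to 34 reads per member window, and the EZH2 counting, which gives no value for 3 members.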
